A study of Mus musculus with 18 samples.

Results

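The genes described here are 10 genes of the mammalian circadian clock, chosen by symbol: Arntl (also called Bmal1), Clock, Per1, Per2, Per3, Cry1, Cry2, Nr1d1, Nr1d2 and Dbp. Each was found once among the 55536 genes of the deposited count table, and all 10 were among the 17590 genes that passed the low-count filter. RNA had been sequenced from pancreatic islets of male mice, 17 weeks old, that were knockout (KO, ZNT8 -/-), heterozygous (Het, ZNT8 +/-) or wild type (WT, ZNT8 +/+) for Slc30a8, the gene of the zinc transporter ZnT8 of insulin granules. Every group was on the NOD.CB17-Prkdcscid background, so all mice also carried the Prkdc scid mutation, which stops T and B lymphocytes from maturing. After an overnight culture, islets of each genotype spent 24 h in medium with cytokines (TNF-α at 100 pg/ml, IFN-γ at 10 pg/ml and IL-1β at 150 pg/ml) or in medium alone, called untreated here. This gave 6 groups of 3 libraries: KO with cytokines, KO untreated, Het with cytokines, Het untreated, WT with cytokines and WT untreated. The labels name 3 mice without saying which libraries came from the same mouse, and the p-values here reflect only how far these libraries scatter, which may be technical. The labels also give no hour at which islets were taken or RNA was extracted, and each group was read at a single time. A shift in clock phase and a change in level therefore cannot be told apart.

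The clock is a loop of transcription factors that runs in nearly every cell. ARNTL pairs with CLOCK, and the pair binds E-box sequences and switches on the Per and Cry genes, whose proteins then hold the pair back. The same pair drives Nr1d1 and Nr1d2, which encode the nuclear receptors REV-ERBα and REV-ERBβ. These repress Arntl, and ROR receptors activate it from the same sites. Dbp is an output of the loop, and its protein binds D-box sequences in other clock genes. In mouse islets the clock is known to be needed for normal insulin secretion in response to glucose.

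The libraries held 22990164 to 29946680 counts each. Slc30a8 averaged 49.2 ± 6.07 CPM in untreated KO islets, 111 ± 15.2 CPM in untreated Het islets and 116 ± 14.5 CPM in untreated WT islets (SD, n = 3 each). The table counts reads over whole genes, so it does not show which exons these reads covered. Nos2, the inducible nitric oxide synthase that cytokines switch on in islets, averaged 72.4 ± 15.5 CPM in KO, 66.1 ± 11.05 CPM in Het and 62.3 ± 1.604 CPM in WT islets with cytokines, and 0.291 ± 0.401, 0.599 ± 0.597 and 1.51 ± 1.22 CPM in the same genotypes untreated. The beta cell gene Ins2 was at 87652 CPM or more in every library, and the 4 markers of T and B lymphocytes summed to 2.00 CPM or less, with Ms4a1 at 0 throughout. CPM values here use library sizes scaled by TMM, which corrects for a few genes taking up many reads.

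The libraries of KO replicate 1 stood apart from the other KO libraries in the clock genes, in both treatments. Relative to the mean of its group on the log2 scale, the library with cytokines deviated by -0.22 for Arntl, -0.21 for Cry1, 0.35 for Nr1d1, 0.44 for Per3 and 0.46 for Dbp. The untreated library deviated the same way, by -0.19 for Arntl, -0.23 for Cry1, 0.54 for Nr1d1, 0.46 for Per3 and 0.64 for Dbp. Arntl and Cry1 were thus at their lowest in these libraries and Nr1d1, Nr1d2, Per3 and Dbp at their highest among the KO libraries of the same treatment. Their totals, 28989342 counts with cytokines and 27494250 counts untreated, lay within the range of the other libraries. Values of the clock genes in KO islets are therefore also given without these libraries. They were picked by these same genes, so a clock gene that passes only without them gains no independent support.

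Levels of different genes were compared per length, as RPKM over the merged exons of the GENCODE M21 annotation, with mean and SD over all 18 libraries. Nr1d1 was highest at 14.3 ± 3.27 RPKM, followed by Per1 at 10.99 ± 0.977 RPKM, Nr1d2 at 8.73 ± 1.302 RPKM, Cry2 at 8.10 ± 1.19 RPKM and Clock at 7.04 ± 0.792 RPKM. Cry1 followed at 5.82 ± 0.827 RPKM, Per2 at 4.86 ± 0.715 RPKM, Dbp at 4.55 ± 1.47 RPKM and Arntl at 2.98 ± 0.314 RPKM, and Per3 was lowest at 1.03 ± 0.205 RPKM. Neighbours in this order differed by less than their combined spread, apart from Arntl and Per3, whose ranges over libraries were apart (2.15 to 3.42 and 0.803 to 1.55 RPKM). Over all libraries Dbp varied most, its highest CPM being 3.33 times its lowest, and Nr1d1 came next with a ratio of 2.31. Per1 varied least, with a ratio of 1.42. The order depends on the length used: over the longest annotated transcript Cry2 was above Nr1d2, Dbp above Cry1 and Arntl above Per2.

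**Figure D1:**
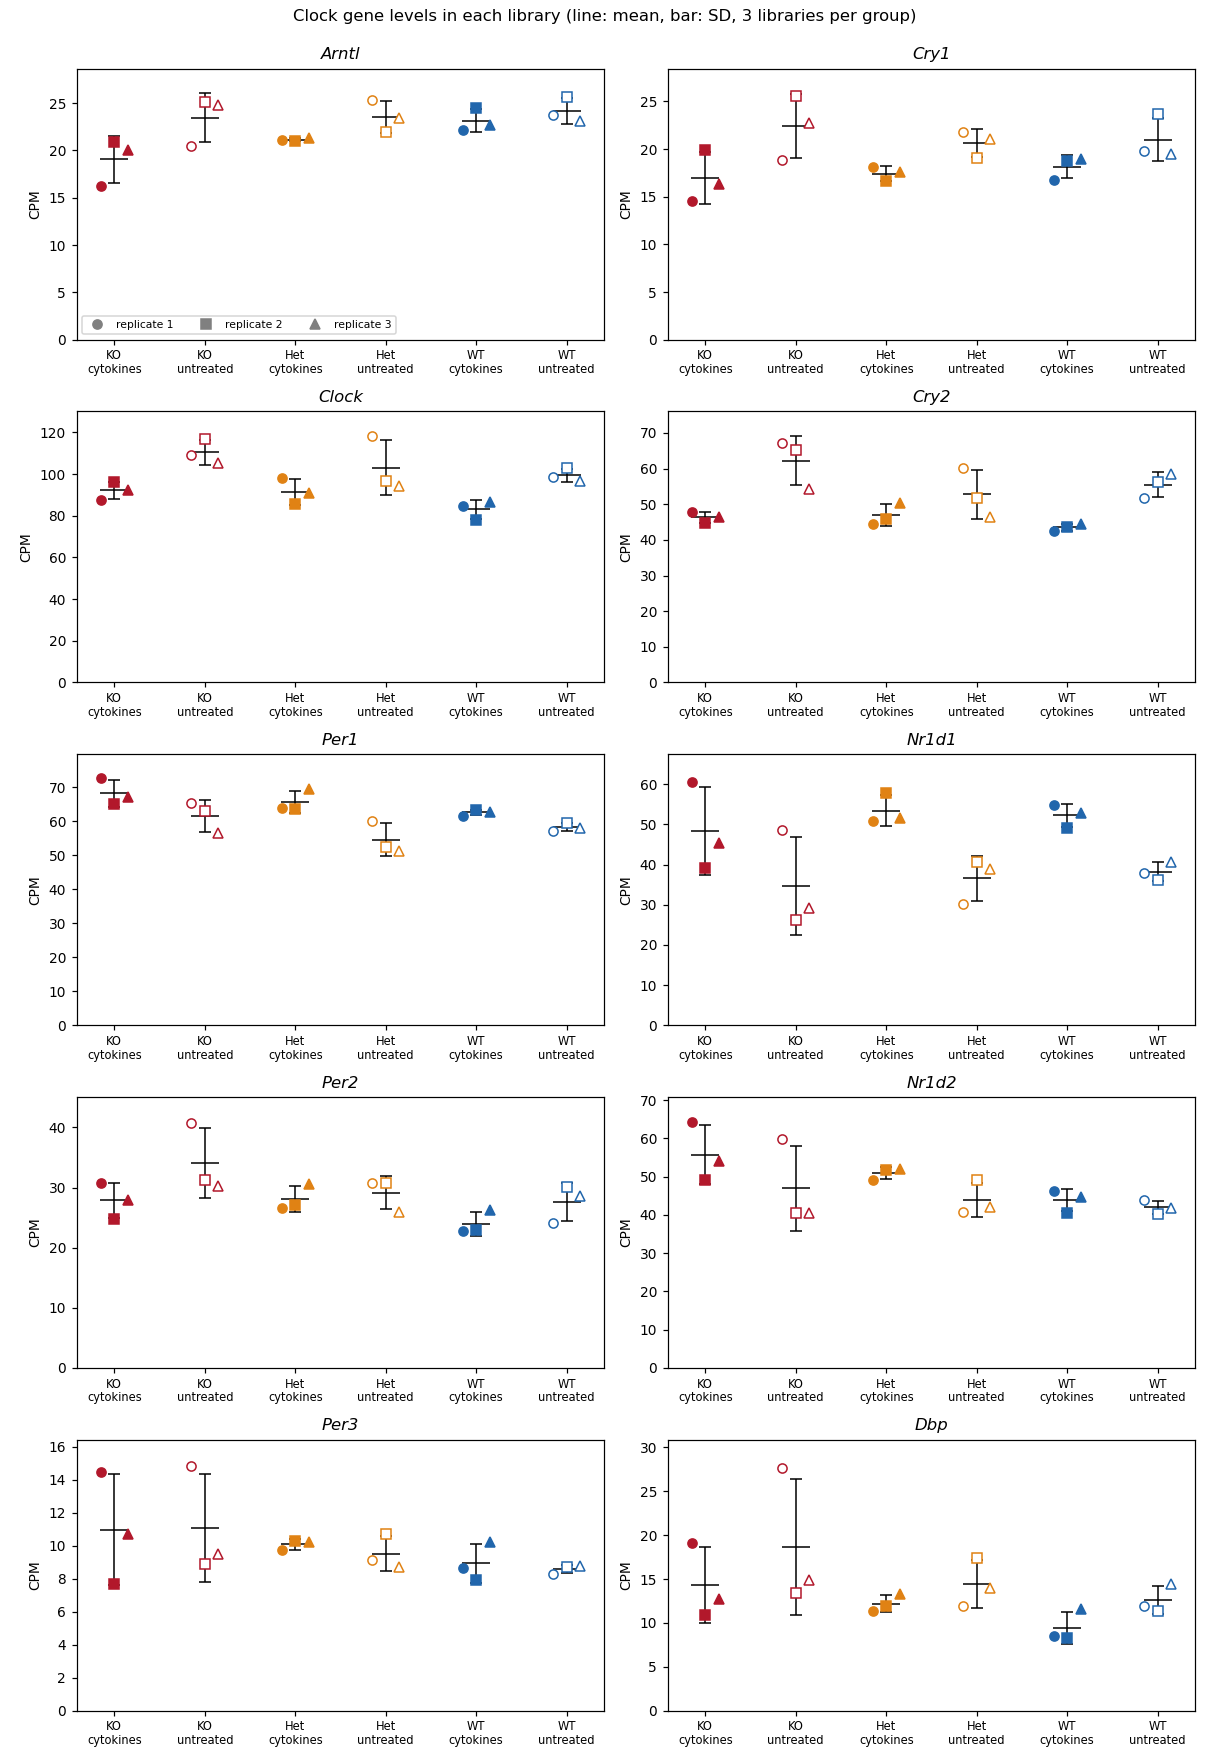
Level of each clock gene in CPM (y axis, from 0) in each of the 18 libraries, by genotype and treatment (x axis), with 3 libraries per group. Symbols give the replicate number, filled symbols are islets with cytokines, lines are group means and bars the SD; the circles of the KO groups sit at 19.2 CPM with cytokines and 27.6 CPM untreated for Dbp, above the other KO libraries.

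The promoters are shown for 4 genes whose sequence holds a clock motif and which differ in how they stood after cytokines: Per1, Cry1 and Per3 among the clock genes, and Ciart, a repressor of the ARNTL and CLOCK pair that is described further below. Each line is the 250 bases before a RefSeq start site, 5′ to 3′ on the gene's strand, from RefSeq on GRCm38.p6. Capitals mark the E-box CACGTG and the D-box, searched as TTATGTAA and TTATGCAA, on both strands. No marked motif overlaps another. The RefSeq start used for Per1 lies inside the GENCODE span of the gene.
Per1, chr11:69098699-69098948, plus strand: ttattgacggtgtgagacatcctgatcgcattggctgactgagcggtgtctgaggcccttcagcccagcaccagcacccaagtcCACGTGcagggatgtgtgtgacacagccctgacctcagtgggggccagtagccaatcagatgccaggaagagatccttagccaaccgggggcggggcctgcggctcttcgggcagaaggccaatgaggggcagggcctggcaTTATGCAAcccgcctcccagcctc
Cry1, chr10:85185055-85185304, minus strand: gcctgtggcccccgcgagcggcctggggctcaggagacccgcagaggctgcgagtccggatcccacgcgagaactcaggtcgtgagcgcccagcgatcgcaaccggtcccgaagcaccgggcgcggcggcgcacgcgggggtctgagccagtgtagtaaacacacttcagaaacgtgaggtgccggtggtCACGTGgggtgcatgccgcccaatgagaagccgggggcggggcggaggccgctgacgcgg
Per3, chr4:151044666-151044915, minus strand: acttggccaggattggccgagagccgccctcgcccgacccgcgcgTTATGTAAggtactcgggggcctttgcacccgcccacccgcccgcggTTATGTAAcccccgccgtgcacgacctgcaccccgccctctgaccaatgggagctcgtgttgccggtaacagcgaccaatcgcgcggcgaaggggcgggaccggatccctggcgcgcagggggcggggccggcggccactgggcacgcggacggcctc
Ciart, chr3:95882229-95882478, minus strand: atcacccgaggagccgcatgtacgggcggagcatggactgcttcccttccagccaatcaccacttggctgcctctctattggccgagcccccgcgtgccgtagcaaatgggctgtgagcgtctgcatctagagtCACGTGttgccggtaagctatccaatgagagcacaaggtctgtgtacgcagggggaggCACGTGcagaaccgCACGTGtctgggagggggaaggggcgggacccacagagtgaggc
Per1 held an E-box whose first base lay 166 bases before the start and a D-box 24 bases before it. Cry1 held an E-box at 60 bases, Per3 held D-boxes at 205 and 158 bases, and Ciart held E-boxes at 116, 58 and 44 bases before the start. The table had 13 windows for 9 of the 10 clock genes, of 300 bases each, from 250 before to 50 after the start, and had none for Per2. In these windows CACGTG was found for 2 genes, a D-box for 2, and the core of the ROR and REV-ERB element, searched as TAGGTCA and TGGGTCA, for 1, namely Arntl, 30 bases after a start. TGACGTCA, the cAMP response element, was found for none of the 9. Of 32851 RefSeq windows of the same length, 7.15% held CACGTG, 1.66% a D-box of either spelling, 6.45% a ROR core of either spelling and 1.79% TGACGTCA. A match is a description of the letters in this window, and a gene without one may hold the motif elsewhere.

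The treatment comparison asks how 24 h of cytokines changed the clock genes within each genotype. In KO islets Arntl, Clock, Cry1 and Cry2 fell and none of the 10 rose, in Het islets Per1 rose and none fell, and in WT islets Clock and Cry2 fell and none rose. The changes that passed were small, from -0.42 to 0.27 on the log2 scale. With edgeR's quasi-likelihood test, adjusted by the Benjamini-Hochberg method over all genes tested, 31.3% of all genes were called in KO islets (15.3% higher and 16% lower), 24.5% in Het islets (12.7% higher and 11.7% lower) and 25.7% in WT islets (12.5% higher and 13.1% lower). Read against these shares, 1 of 10 clock genes was called in Het islets, below the 24.5% of all genes. Called in WT islets were 2 of 10 against 25.7%, both lower against 13.1%. In KO islets 4 of 10 were called against 31.3%, all of them lower against 16%. Whether these counts exceed the shares was not tested, so they are not shown to set the clock genes apart. Groups did not overlap for 2 clock genes in KO islets, both lower (all genes: 20.1% higher and 22.6% lower), for 3 higher and 2 lower in Het islets (17.7% and 17.4%), and for 2 higher and 3 lower in WT islets (23.1% and 23.4%). The median log2 fold change of the clock genes was -0.28 in KO, -0.10 in Het and -0.13 in WT islets, and that of all genes tested -0.03, -0.03 and -0.01 in the same genotypes.

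Arntl (ENSMUSG00000055116; GRCm38 chromosome 7, 113207465 to 113314126, plus strand) encodes the activator without which the loop stops in mice. Its levels were 16.2, 20.9 and 20.1 CPM with cytokines and 20.5, 25.1 and 24.8 CPM untreated in KO islets. They were 21.1, 21.0 and 21.3 CPM with cytokines and 25.3, 22.0 and 23.4 CPM untreated in Het islets, and 22.2, 24.5 and 22.7 CPM with cytokines and 23.8, 25.7 and 23.1 CPM untreated in WT islets. The groups did not overlap in Het islets and overlapped in KO and WT islets. On the log2 scale it differed by -0.30 ± 0.09 (SE) in KO (adjusted p = 0.0223), -0.16 ± 0.09 in Het (adjusted p = 0.256) and -0.06 ± 0.09 in WT islets (adjusted p = 0.670), so that the KO value alone passed. It passed without both libraries of KO replicate 1 (-0.27, adjusted p = 0.0258). Those libraries were set apart by their deviation in Arntl among other genes, so this pass is not independent support. The KO call was lost without KO replicate 1 with cytokines (-0.20, adjusted p = 0.123), untreated KO replicate 2 (-0.25, adjusted p = 0.0947) or untreated KO replicate 3 (-0.26, adjusted p = 0.0762). A fit to the KO groups alone also ended it (-0.28, adjusted p = 0.130). The difference in response between KO and WT islets was -0.24 ± 0.13 and did not pass (adjusted p = 0.820), so the 2 genotypes were not shown to differ.

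Clock (ENSMUSG00000029238; GRCm38 chromosome 5, 76209868 to 76304792, minus strand), the DNA-binding partner of ARNTL, had 87.7, 96.3 and 92.5 CPM in KO islets with cytokines, against 109, 117 and 105 CPM in untreated KO islets. For Het islets the values were 98.2, 85.7 and 90.8 CPM with cytokines and 118, 96.6 and 94.3 CPM untreated. For WT islets they were 84.6, 78.1 and 86.6 CPM with cytokines and 98.4, 103 and 96.5 CPM untreated. Cytokine-treated libraries were below untreated ones without overlap in KO and in WT islets. Clock fell by 0.26 ± 0.08 on the log2 scale in KO islets (adjusted p = 0.0177) and by 0.26 ± 0.08 in WT islets (adjusted p = 0.0232), and stood at -0.17 ± 0.08 in Het islets (adjusted p = 0.127). The KO call was lost without both libraries of KO replicate 1 (-0.21, adjusted p = 0.143), without KO replicate 1 with cytokines (-0.23, adjusted p = 0.0785) and without untreated KO replicate 2 (-0.22, adjusted p = 0.0812). The WT call was lost without WT replicate 2 with cytokines (-0.20, adjusted p = 0.124) or untreated (-0.23, adjusted p = 0.0868).

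Cry2 (ENSMUSG00000068742; GRCm38 chromosome 2, 92403646 to 92434043, minus strand), a repressor of the ARNTL and CLOCK pair, had the smallest adjusted p of the 10 genes. KO islets had 47.8, 44.8 and 46.5 CPM with cytokines, against 67.1, 65.2 and 54.3 CPM untreated. Het islets had 44.6, 45.9 and 50.5 CPM with cytokines and 60.0, 51.9 and 46.3 CPM untreated, and WT islets had 42.5, 43.6 and 44.4 CPM with cytokines and 51.6, 56.4 and 58.4 CPM untreated. All libraries with cytokines were below all untreated ones in KO and in WT islets, and the groups overlapped in Het islets. The log2 fold change was -0.42 ± 0.09 in KO islets (adjusted p = 0.00177) and -0.35 ± 0.09 in WT islets (adjusted p = 0.00854), a 0.746-fold and 0.784-fold level. In Het islets it was -0.17 ± 0.09 and did not pass (adjusted p = 0.200). Without KO replicate 1 the fall in KO islets was -0.37 (adjusted p = 0.0270), and it passed in KO and WT islets without any 1 library.

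Cry1 (ENSMUSG00000020038; GRCm38 chromosome 10, 85131700 to 85185064, minus strand), its paralog, had 14.6, 19.9 and 16.4 CPM with cytokines and 18.9, 25.6 and 22.7 CPM untreated in KO islets. In Het islets it had 18.1, 16.6 and 17.5 CPM with cytokines and 21.8, 19.1 and 21.1 CPM untreated. WT islets with cytokines had 16.7, 18.7 and 19.0 CPM, against 19.8, 23.6 and 19.5 CPM untreated. The KO groups overlapped, because the untreated library of replicate 1 was below the library of replicate 2 with cytokines, while the Het and WT groups did not overlap. On the log2 scale the fold change was -0.40 ± 0.12 in KO islets (adjusted p = 0.0170), -0.24 ± 0.12 in Het islets (adjusted p = 0.158) and -0.21 ± 0.12 in WT islets (adjusted p = 0.224). Without both libraries of KO replicate 1 the KO value was -0.39 (adjusted p = 0.0297). Those libraries were set apart by their deviation in Cry1 too, so this pass is not independent support. The call in KO islets was lost without KO replicate 1 with cytokines (-0.30, adjusted p = 0.0947), KO replicate 3 with cytokines (-0.38, adjusted p = 0.0553) or untreated KO replicate 2 (-0.30, adjusted p = 0.0978), and in a fit to the KO groups alone (-0.38, adjusted p = 0.104).

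Per1 (ENSMUSG00000020893; GRCm38 chromosome 11, 69095217 to 69109960, plus strand) is a Period gene that hormones and cAMP induce within a short time, and it was the only one of the 10 called higher in any genotype. KO islets had 72.8, 65.1 and 67.1 CPM with cytokines and 65.5, 63.1 and 56.5 CPM untreated. For Het islets the levels were 63.9, 63.8 and 69.5 CPM with cytokines, against 60.1, 52.4 and 51.4 CPM untreated. For WT islets they were 61.7, 63.3 and 62.9 CPM with cytokines, against 57.2, 59.4 and 58.2 CPM untreated. Libraries with cytokines lay above the untreated ones without overlap in Het and WT islets, and overlapped them in KO islets. The log2 fold change was 0.27 ± 0.07 in Het islets (adjusted p = 0.00734), and it passed there without any 1 library. It was 0.15 ± 0.07 in KO (adjusted p = 0.101) and 0.10 ± 0.07 in WT islets (adjusted p = 0.273), and 0.17 in KO islets without both libraries of KO replicate 1 (adjusted p = 0.133). Without untreated KO replicate 1 the KO value passed (0.21, adjusted p = 0.0355). A fit to the Het groups alone gave 0.28 with an adjusted p of 0.0544.

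Per2 and Per3, the other Period genes, did not pass in any genotype. Per2 (GRCm38 chromosome 1, 91415982 to 91459324, minus strand) was at 24.9 to 30.7 CPM with cytokines and 30.2 to 40.8 CPM untreated in KO islets, at 26.5 to 30.6 and 26.0 to 30.7 CPM in Het islets, and at 22.7 to 26.3 and 24.1 to 30.1 CPM in WT islets. Its log2 fold change was -0.29 ± 0.12 in KO (adjusted p = 0.0798), -0.05 ± 0.12 in Het and -0.20 ± 0.12 in WT islets, and the KO value passed without untreated KO replicate 3 (-0.37, adjusted p = 0.0403). It was -0.20 in KO islets without both libraries of KO replicate 1 (adjusted p = 0.267). Per3 (GRCm38 chromosome 4, 151003652 to 151044665, minus strand), with the lowest level, was at 14.5, 7.71 and 10.8 CPM with cytokines and 14.9, 8.89 and 9.51 CPM untreated in KO islets. Its fold change there was -0.01 ± 0.20 on the log2 scale, with an interval of ±2 SE of -0.41 to 0.39, and its sign changed with the processing, to 0.03 without both libraries of KO replicate 1. In Het islets Per3 stood at 0.08 ± 0.20 and in WT islets at 0.06 ± 0.20.

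Nr1d1 (ENSMUSG00000020889; GRCm38 chromosome 11, 98767932 to 98775333, minus strand) encodes REV-ERBα, the repressor of Arntl, and had the largest positive fold changes of the 10 genes, none of which passed edgeR's test in the fit of 1 mean per group to all 18 libraries. In KO islets it had 60.6, 39.2 and 45.3 CPM with cytokines and 48.7, 26.3 and 29.1 CPM untreated. In Het islets the levels were 50.8, 57.9 and 51.6 CPM with cytokines, against 30.1, 40.6 and 39.0 CPM untreated, and in WT islets 54.8, 49.1 and 53.0 CPM with cytokines, against 38.0, 36.1 and 40.7 CPM untreated. Treated libraries lay above untreated ones without overlap in Het and WT islets, and overlapped them in KO islets through the untreated library of replicate 1. The log2 fold change was 0.48 ± 0.20 in KO (adjusted p = 0.0881), 0.55 ± 0.20 in Het (adjusted p = 0.0642) and 0.45 ± 0.20 in WT islets (adjusted p = 0.123). With both libraries of KO replicate 1 left out, and with 1 estimate of the spread shared by all groups as before, it was 0.63 in KO (adjusted p = 0.00298), 0.56 in Het (adjusted p = 0.00135) and 0.47 in WT islets (adjusted p = 0.00457), past the threshold in each. Those libraries were set apart by their deviation in the clock genes, Nr1d1 among them. The lower adjusted p without them is therefore not independent support for a rise of Nr1d1. DESeq2 called it in KO (0.50, adjusted p = 0.0394) and Het islets (0.56, adjusted p = 0.0221), and limma voom in KO (0.75, adjusted p = 0.00283) and WT islets (0.42, adjusted p = 0.0437). Fits to the groups of 1 genotype alone called it in Het (0.56, adjusted p = 0.0282) and WT islets (0.46, adjusted p = 0.000448). An edgeR fit with a block on replicate number within genotype called it in KO (0.51, adjusted p = 0.000604), Het (0.56, adjusted p = 0.0004) and WT islets (0.45, adjusted p = 0.00167). The labels do not say that a number marks a mouse. Leaving out the untreated KO replicate 1 library alone gave 0.82 in KO islets (adjusted p = 0.00155).

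Nr1d2 (GRCm38 chromosome 14, 18204054 to 18239127, minus strand), the gene of REV-ERBβ, was at 64.2, 49.0 and 54.0 CPM with cytokines and 59.7, 40.4 and 40.6 CPM untreated in KO islets. It was at 49.0 to 52.0 CPM with cytokines and 40.6 to 49.0 CPM untreated in Het islets, and at 40.5 to 46.1 CPM with cytokines and 40.3 to 43.8 CPM untreated in WT islets. The log2 fold change was 0.25 ± 0.13 in KO (adjusted p = 0.168), 0.21 ± 0.13 in Het (adjusted p = 0.269) and 0.06 ± 0.13 in WT islets (adjusted p = 0.777). Without both libraries of KO replicate 1 it passed in KO (0.37, adjusted p = 0.00886) and Het islets (0.22, adjusted p = 0.0369), and without the untreated one alone it passed in KO islets (0.48, adjusted p = 0.00226). Those libraries were set apart by their deviation in Nr1d2 too, so these passes are not independent support.

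Dbp (ENSMUSG00000059824; GRCm38 chromosome 7, 45705088 to 45710203, plus strand), the output factor, had 19.2, 10.9 and 12.8 CPM with cytokines and 27.6, 13.4 and 14.9 CPM untreated in KO islets. Het islets with cytokines had 11.4, 11.96 and 13.3 CPM, against 11.9, 17.4 and 14.0 CPM untreated, and WT islets with cytokines had 8.51, 8.30 and 11.6 CPM, against 11.9, 11.4 and 14.4 CPM untreated. The groups overlapped in all 3 genotypes. Fold changes on the log2 scale were -0.38 ± 0.26 in KO, -0.24 ± 0.26 in Het and -0.41 ± 0.27 in WT islets, with adjusted p of 0.294, 0.560 and 0.288 in that order. Without untreated KO replicate 1 the KO value was 0.03, and without both libraries of KO replicate 1 it was -0.24 (adjusted p = 0.412).

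**Figure D2:**
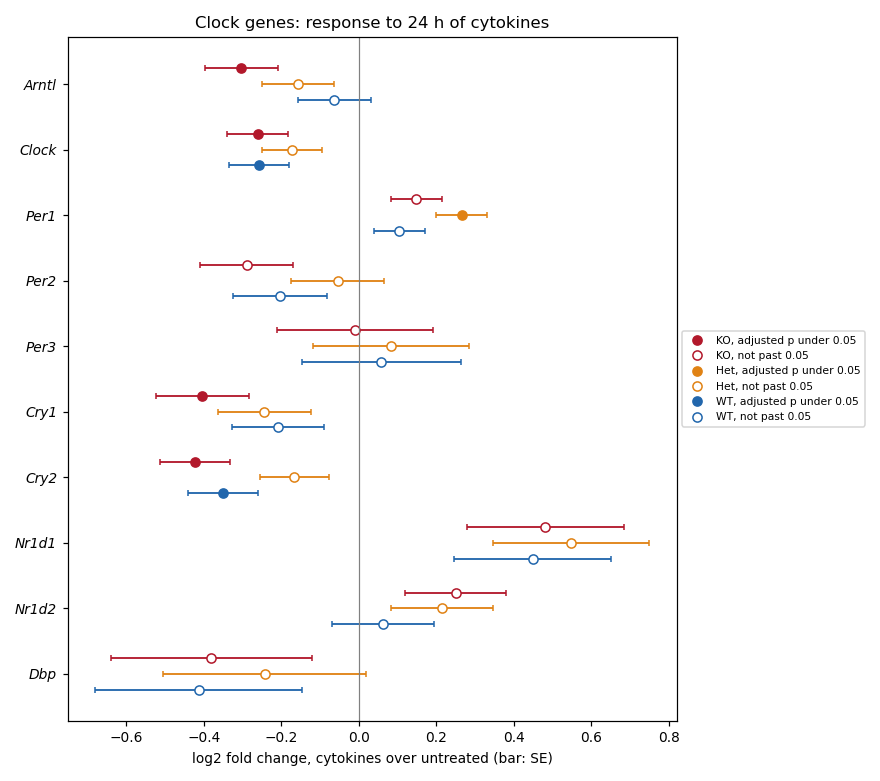
Log2 fold change of each clock gene (y axis) with cytokines over untreated islets (x axis, bar: SE) in KO, Het and WT islets, 3 libraries per group; filled points passed an adjusted p of 0.05. Cry2 is lowest at -0.42 in KO islets among the filled points, and the open points of Nr1d1 lie at 0.48, 0.55 and 0.45 in KO, Het and WT islets.

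Some clock genes share exon bases with a gene on the other strand, and no source used here says whether the counting used strand. Dbp shares 539 exon bases with Sphk2, 18% of its exons, Nr1d1 shares 263 with Thra, 8.55%, Cry2 shares 295 with D930015M05Rik, 4.67%, and Arntl shares 33 with Gm45355, 0.439%. Thra, a thyroid hormone receptor, stood at -0.27 ± 0.11 on the log2 scale with cytokines in KO, -0.19 ± 0.11 in Het and -0.37 ± 0.11 in WT islets, where Nr1d1 stood higher with cytokines in each genotype. Sphk2, a sphingosine kinase, fell in KO (-0.34 ± 0.08, adjusted p = 0.00414) and WT islets (-0.35 ± 0.08, adjusted p = 0.00396), where Dbp stood lower too. Without both libraries of KO replicate 1 the KO value of Sphk2 was -0.30 (adjusted p = 0.0510). The part of such reads in the values of Dbp was not tested. Levels of cell type markers also moved with treatment: of 9 beta cell markers, 5 were called lower in KO, 5 in Het and 5 in WT islets, and 1 was called higher in KO islets. Their summed level was 161380.0 to 204060.0 CPM in KO islets with cytokines against 187330.0 to 232960.0 CPM untreated, 153850.0 to 182440.0 CPM in Het islets with cytokines against 163380.0 to 200780.0 CPM untreated, and 143790.0 to 162760.0 CPM in WT islets with cytokines against 166460.0 to 192130.0 CPM untreated. The 6 duct markers summed to 2959.8 to 3868 CPM in KO islets with cytokines against 1276 to 1841 CPM untreated, to 3423 to 4507 CPM in Het islets with cytokines against 1602 to 4827 CPM untreated, and to 3596 to 6612 CPM in WT islets with cytokines against 1746 to 2761 CPM untreated. These sums follow 1 gene in large part: in KO islets Spp1 had 2530, 2184 and 3140 CPM with cytokines and 568, 1114 and 1180 CPM untreated. Krt7, another of the 6, had 679, 690 and 571 CPM with cytokines and 642, 629 and 547 CPM untreated in KO islets. Of the 6 duct markers, 2 were called higher in KO, 0 in Het and 2 in WT islets. The 9 mesenchymal markers summed to 464 to 1668 CPM in KO islets with cytokines against 1327 to 3409 CPM untreated, to 433 to 1058 CPM in Het islets with cytokines against 872 to 2686 CPM untreated, and to 681 to 1251 CPM in WT islets with cytokines against 1393 to 1568 CPM untreated. Of them 0 were called lower in KO, 6 in Het and 2 in WT islets, with median log2 fold changes of -0.94, -1.23 and -0.65. Of 5 alpha cell markers, 2 were called lower in each genotype. The part of these markers in the clock gene values was not tested, and fewer cells of a type and less RNA per cell cannot be told apart in bulk RNA.

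The genotype comparison asks whether loss of ZnT8 went with a change of the clock genes at either treatment. None of the 10 was called by edgeR between KO and WT islets, where 2.94% of all genes were called untreated (0.534% higher and 2.4% lower in KO) and 5.33% with cytokines (1.52% higher and 3.8% lower). At an unadjusted p under 0.05 there were 2 clock genes untreated and 3 with cytokines. DESeq2 called none in either treatment, and limma voom with sample quality weights called none untreated but 6 with cytokines: Per1, Per2, Per3, Nr1d2 and Dbp higher and Arntl lower in KO. No share of all genes at an unadjusted p under 0.05, or called by limma voom, is given here. The largest differences were in Dbp, at 0.57 ± 0.26 on the log2 scale untreated (adjusted p = 0.267) and 0.60 ± 0.27 with cytokines (adjusted p = 0.189). Without both libraries of KO replicate 1 these were 0.18 and 0.34 (adjusted p = 0.703 and 0.295). With cytokines every KO library had less Arntl than any WT library, at -0.28 ± 0.09 (adjusted p = 0.0892), and -0.16 (adjusted p = 0.224) without those libraries. Nr1d2 with cytokines stood higher in KO islets, at 0.35 ± 0.13 (adjusted p = 0.127), and Per2 untreated at 0.30 ± 0.12 (adjusted p = 0.191), and without those libraries they stood at 0.25 and 0.17. Groups did not overlap for Clock, Per2 and Per3 untreated, all higher in KO, against 11% of all genes higher and 14.7% lower, and with cytokines for Clock, Cry2, Nr1d2 and Per1, higher in KO, and Arntl, lower in KO, against 14.5% and 16%.

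Between Het and WT islets no clock gene was called by edgeR, DESeq2 or limma voom in either treatment, and none had an unadjusted p under 0.05, against a background of 0.00569% of genes called untreated and 0% with cytokines. Log2 differences of the 10 genes ran from -0.09 for Per1 to 0.20 for Dbp untreated, and from -0.13 for Arntl to 0.37 for Dbp with cytokines. Groups with cytokines did not overlap for 5 of the 10, with Cry2, Nr1d2, Per1 and Per2 higher and Arntl lower in Het islets, against 7.71% of all genes higher and 8.16% lower, and untreated they overlapped for all 10, against 3.46% and 7.24%. Between KO and Het islets edgeR again called none of the 10, against 0% of genes untreated and 0.00569% with cytokines. Untreated, 2 of the 10 had an unadjusted p under 0.05, Cry2 at 0.24 ± 0.09 (adjusted p = 0.254) and Per1 at 0.18 ± 0.07 (adjusted p = 0.257), and with cytokines none did. Groups overlapped for all 10 untreated, against 5.07% of all genes apart and higher and 6.32% lower in KO, and with cytokines for all but Arntl, lower in KO, against 6.37% and 7.83%. Cry2 and Per1 untreated were called by limma voom (0.32 and 0.25) and by edgeR without untreated Het replicate 1 (0.34 and 0.25), and DESeq2 called neither. Without both libraries of KO replicate 1 they stood at 0.18 and 0.13 (adjusted p = 0.588 and 0.575). The acinar markers, 17 genes, summed to 729 to 1712 CPM in KO, 2752 to 4223 CPM in Het and 5590.0 to 10497 CPM in WT islets with cytokines, and to 1512 to 2358, 2843 to 4322 and 7808 to 8149.5 CPM in the same genotypes untreated, all of them above 0. Between KO and WT islets 15 of the 15 acinar markers tested were called lower in KO untreated and 14 with cytokines, as were 2 and 2 of 6 duct markers and 2 and 2 of 6 endothelial markers. The endothelial markers summed to 133 to 234 CPM in KO, 268 to 373 CPM in Het and 303 to 455 CPM in WT islets with cytokines, and to 185 to 288, 311 to 368 and 357 to 477 CPM untreated. Beta and alpha cell markers tended the other way. Of 9 beta cell markers, 0 were called higher in KO than in WT islets untreated and 1 with cytokines (all genes: 0.534% and 1.52%). Their median log2 difference was 0.34 untreated and 0.40 with cytokines. The median of 5 alpha cell markers, 0 of them called, was 0.32 and 0.31. That of the clock genes was 0.16 and 0.14, and that of all genes tested 0.003 and 0.002. The cell type markers moved with genotype, and their part in the clock gene values was not tested.

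The response to cytokines itself was compared between genotypes as an interaction. No clock gene was called by edgeR in the 3 interactions, none had an unadjusted p under 0.05, and DESeq2 and limma voom called none. Over all genes edgeR called 0.0114% for KO against WT, 0% for KO against Het and 0% for Het against WT. The smallest p was that of Cry2 for KO against Het, with a difference of -0.26 ± 0.13 on the log2 scale (adjusted p = 0.867) and an interval of ±2 SE of -0.51 to -0.00342. For Nr1d1 the same interval was -0.64 to 0.51 for KO against Het and -0.54 to 0.60 for KO against WT, so differences in its response of the size of the response itself could not be detected at this depth and number of libraries. The calls in 1 genotype and not in another are therefore not shown to be differences between genotypes.

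Libraries of the same group differed from each other in a pattern shared by several clock genes, and this was examined after subtracting each group's mean log2 CPM. Libraries with more Arntl had more Cry1 and less Nr1d1, Nr1d2, Dbp and Per3. Over the 18 libraries Pearson's r of Arntl with Nr1d1 was -0.924 and Spearman's rho -0.924 (permutation p = 6e-05 and 9e-05, adjusted over the 9 relations 0.00054 and 0.00081, 100000 shuffles within groups, 2-sided). The shuffles treated the 18 libraries as independent. If libraries of 1 number share a mouse, these p-values and those that follow are too small. With Nr1d2 r was -0.908 and rho -0.864 (adjusted permutation p = 0.00237 and 0.00308), with Dbp -0.893 and -0.874 (0.00434 and 0.00220), with Cry1 0.868 and 0.854 (0.00237 and 0.00288), and with Per3 -0.853 and -0.767 (0.0133 and 0.00837). The relation did not pass for Clock (r = 0.408, rho = 0.503), Per1 (r = -0.232, rho = -0.0671), Per2 (r = -0.510, rho = -0.401) or Cry2 (r = -0.118, rho = -0.0712), with adjusted permutation p from 0.0907 to 0.860.

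The libraries farthest from the median of Arntl were the 2 of KO replicate 1. Without them, over 16 libraries, r with Arntl was -0.834 for Nr1d1, -0.824 for Nr1d2, -0.706 for Dbp, 0.747 for Cry1 and -0.482 for Per3, so the relation with Per3 rested in good part on those libraries. Among the other genes the sign turned for Per1 (0.557), Per2 (0.0924) and Cry2 (0.336), and r with Clock was 0.438. Libraries of both treatments with the same number in a genotype may share a mouse, so the deviations were also averaged over them, which left 9 values: r was -0.967 for Nr1d1, -0.985 for Nr1d2, -0.936 for Dbp, 0.911 for Cry1 and -0.926 for Per3. No p was computed for the 9 values or for the 16 libraries. The labels give no batch or date by which to split the libraries. Among the pairs without Arntl, given as description with no test, the highest r over 18 libraries was that of Nr1d1 with Nr1d2, 0.93 (0.703 over 16), and Per1 with Cry2 had 0.903 (0.925 over 16).

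**Figure D3:**
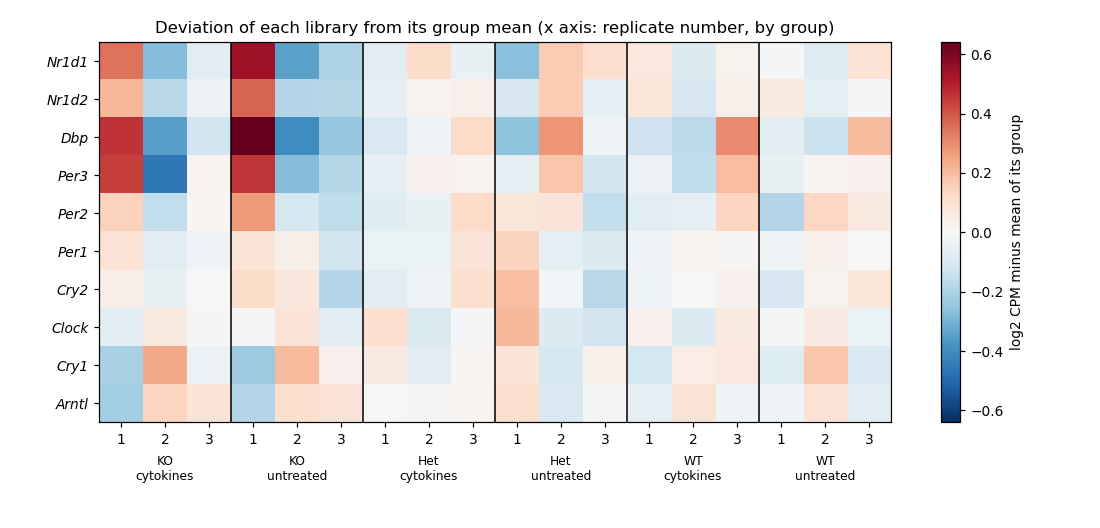
Deviation of each library from the mean log2 CPM of its group (color, red above and blue below) for each clock gene (y axis) by group and replicate number (x axis). Both libraries of KO replicate 1 are red for Nr1d1, Nr1d2, Dbp and Per3 and blue for Arntl and Cry1, with 0.64 for Dbp in the untreated library.

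**Figure D4:**
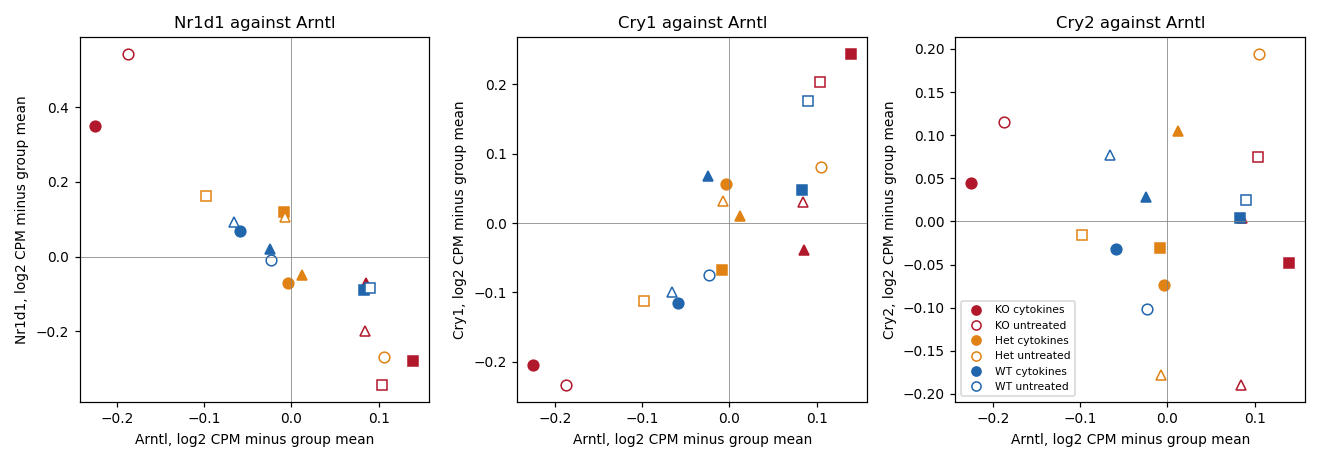
Group-centred log2 CPM of Nr1d1, Cry1 and Cry2 (y axes) against that of Arntl (x axis), 1 point per library (circle, square and triangle: replicate 1, 2 and 3), 18 in all. Nr1d1 falls along Arntl (r = -0.924), Cry1 rises with it (r = 0.868), and Cry2 shows no such trend (r = -0.118).

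Likeness to single clock genes was ranked over 12275 genes outside the 10 that averaged 2 CPM or more, leaving out mitochondrial genes and gene models with a placeholder symbol. Those whose group-centred levels were most like Cry2 over the 18 libraries were Lrp3 (r = 0.937), Dagla (0.932) and Kif12 (0.917), and those most like Per1 were Kif12 (0.902), Cd2bp2 (0.887) and Tom1l2 (0.876). These likenesses are descriptive, and the points share depth and scaling. Arntl and Nr1d1 were looked up after their values were seen. Of the genes outside the 10, Nfil3, the repressor that competes with DBP for D-boxes, had the highest r with Arntl (0.855). Usp38 was close behind it (0.854). Nfil3 also had the lowest r with Nr1d1 (-0.875), followed by Tmem35b (-0.867). Tef, a relative of DBP, had the highest r with Nr1d1 (0.915) outside the 10, followed by Map3k11 (0.882). No r without KO replicate 1 is given here for these genes. Nfil3 had 23.9, 35.7 and 31.4 CPM in KO islets with cytokines and 20.6, 31.5 and 29.0 CPM in untreated KO islets, lowest in replicate 1 of both. Tef had 40.7, 30.5 and 35.9 CPM with cytokines and 51.3, 35.4 and 34.7 CPM untreated in KO islets, highest in replicate 1 of both.

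Around the 10 genes, a list of 10 other genes of the core loop held genes with larger responses to cytokines than any of the 10. Npas2 and Ciart passed in every genotype, and Hlf in KO and WT islets. In KO islets 2 of these 10 rose and 2 fell, in Het islets 1 rose and 1 fell, and in WT islets 1 rose and 3 fell, against 15.3% of all genes higher and 16% lower in KO, 12.7% and 11.7% in Het, and 12.5% and 13.1% in WT islets. The list's median log2 fold change was 0.05 in KO, -0.04 in Het and -0.14 in WT islets.

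Npas2 (GRCm38 chromosome 1, 39193731 to 39363236, plus strand) encodes a paralog of CLOCK that can take its place beside ARNTL. KO islets had 62.1, 68.8 and 63.1 CPM with cytokines and 14.0, 19.1 and 17.995 CPM untreated. Het islets had 73.3, 78.1 and 77.5 CPM with cytokines and 20.6, 17.1 and 20.6 CPM untreated, and WT islets 75.5, 88.6 and 78.2 CPM with cytokines and 29.4, 26.3 and 22.1 CPM untreated. The lowest treated library was above the highest untreated one in each genotype. Npas2 stood at 1.93 ± 0.12 in KO (adjusted p = 8.87e-09), 1.97 ± 0.12 in Het (adjusted p = 8.24e-09) and 1.64 ± 0.11 in WT islets (adjusted p = 8.35e-08) on the log2 scale, where Clock stood at -0.26, -0.17 and -0.26 in the same genotypes. Between genotypes, untreated Npas2 was lower in KO islets than in WT ones, with a log2 difference of -0.61 ± 0.12 (adjusted p = 0.0131). That call was lost without both libraries of KO replicate 1 (-0.47, adjusted p = 0.0845), without untreated KO replicate 1 alone (-0.47, adjusted p = 0.0675) and without untreated WT replicate 1 (-0.51, adjusted p = 0.0768). It was also lost in a fit to the 2 groups alone (-0.60, adjusted p = 0.0748). With cytokines the difference was -0.32 ± 0.11 and did not pass with edgeR (adjusted p = 0.0991), while limma voom called it (-0.40, adjusted p = 0.00261). The rise in KO islets was 1.85 (adjusted p = 3.99e-07) without both libraries of KO replicate 1.

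Ciart (GRCm38 chromosome 3, 95878503 to 95882251, minus strand), the repressor whose promoter is printed above with E-boxes, had 3.03, 2.20 and 2.496 CPM with cytokines and 6.14, 5.80 and 4.52 CPM untreated in KO islets. In Het islets the values were 2.71, 2.15 and 1.89 CPM with cytokines against 5.46, 5.91 and 5.13 CPM untreated, and in WT islets 1.90, 2.38 and 2.23 CPM with cytokines against 4.61, 6.20 and 4.25 CPM untreated. Treated libraries were below untreated ones without overlap in all 3 genotypes, at -1.08 ± 0.18 in KO (adjusted p = 0.000282), -1.29 ± 0.19 in Het (adjusted p = 8.12e-05) and -1.21 ± 0.19 in WT islets (adjusted p = 0.000181) on the log2 scale. The KO value was -1.11 (adjusted p = 0.00277) without both libraries of KO replicate 1. Among the clock genes with a printed promoter, Cry1, also with an E-box, stood lower with cytokines, and Per1, with an E-box and a D-box, stood higher.

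Hlf, a D-box activator like DBP, averaged 1.77 ± 0.829 CPM with cytokines and 3.99 ± 1.66 CPM untreated in KO islets. Its log2 fold change was -1.16 ± 0.32 in KO (adjusted p = 0.0118), -0.71 ± 0.33 in Het (adjusted p = 0.134) and -1.32 ± 0.35 in WT islets (adjusted p = 0.00983). The Hlf call was lost in KO islets without untreated KO replicate 1 (-0.76) or KO replicate 3 with cytokines (-0.94), and in WT islets without WT replicate 2 with cytokines (-1.08). With limma voom (-0.71, adjusted p = 0.0635) and in a fit to the KO groups alone (-1.15, adjusted p = 0.0836) the KO value did not pass. Without both libraries of KO replicate 1 Hlf passed in KO (-1.23, adjusted p = 0.00714) and in Het islets (-0.70, adjusted p = 0.0385). Those libraries were set apart by the clock genes, and Hlf too was highest in them among KO libraries of the same treatment. These passes are therefore not independent support. The remaining calls were Bhlhe40 higher in KO and Bhlhe41 lower in WT islets, E-box repressors named here after their values were seen, and neither held without every single library. Bhlhe40 (0.81 ± 0.25) was lost without untreated KO replicate 1 (0.74), untreated KO replicate 2 (0.69), KO replicate 3 with cytokines (0.61) or both libraries of KO replicate 1 (0.78), with no filter on low counts (0.82) and in a fit to the KO groups alone (0.83). Bhlhe41 (-0.27 ± 0.08) was lost without WT replicate 1 (-0.27) or 2 (-0.23) with cytokines, or untreated WT replicate 2 (-0.26) or 3 (-0.25).

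**Figure D5:**
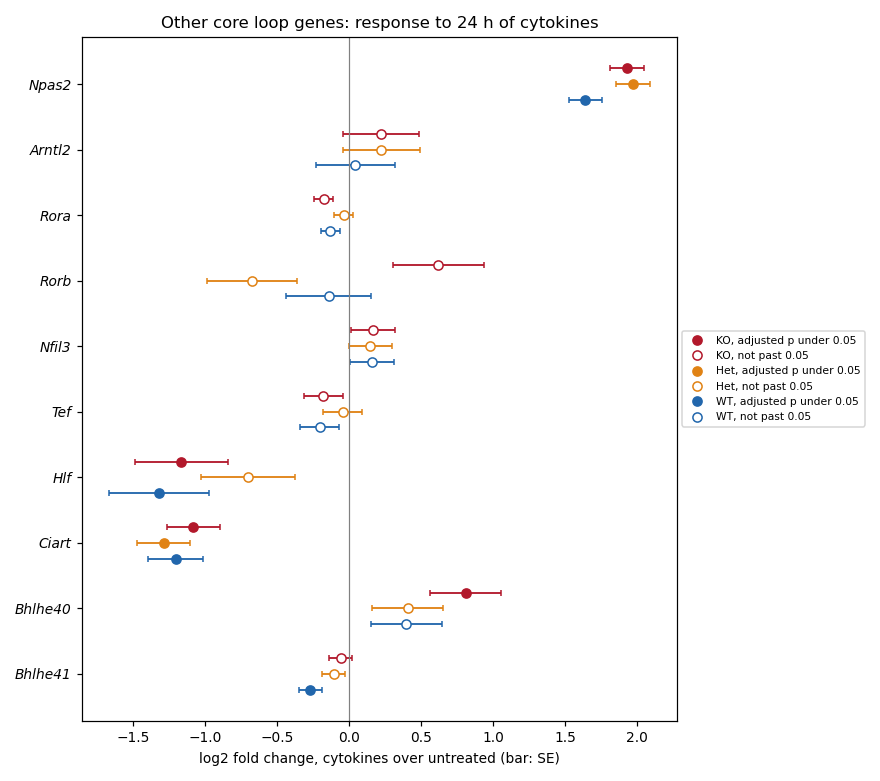
Log2 fold change with cytokines over untreated islets (x axis, bar: SE) of 10 other genes of the core loop (y axis) in KO, Het and WT islets, 3 libraries per group; filled points passed an adjusted p of 0.05. Npas2 lies at 1.93, 1.97 and 1.64 in KO, Het and WT islets, and Ciart at -1.08, -1.29 and -1.21.

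Genes that act on the clock proteins or follow the clock were counted in the same way, against 15.3% of all genes higher and 16% lower in KO, 12.7% and 11.7% in Het, and 12.5% and 13.1% in WT islets. Of 25 kinases, ligases and cofactors of the clock proteins, 2 rose and 3 fell with cytokines in KO, 4 rose and 2 fell in Het, and 4 rose and 2 fell in WT islets. Fbxl21, an F-box protein that acts on the Cryptochromes, had the smallest adjusted p: it averaged 6.66 ± 0.542 CPM with cytokines and 3.39 ± 0.190 CPM untreated in KO islets, a log2 fold change of 0.97 ± 0.15 (adjusted p = 0.000101), with 1.06 ± 0.15 in Het and 0.96 ± 0.15 in WT islets. Of 16 clock output genes tested, which include Ciart, Hlf, Nfil3 and Tef of the core loop list, 3 rose and 6 fell in KO, 2 rose and 4 fell in Het, and 2 rose and 5 fell in WT islets. Among them Pnpla2, a triglyceride lipase, rose (0.40 ± 0.06 in KO, 0.36 ± 0.06 in Het and 0.28 ± 0.06 in WT islets), and Cdkn1a, a cell cycle inhibitor, fell (-0.45 ± 0.07, -0.44 ± 0.07 and -0.31 ± 0.07 in the same genotypes). The KO values of these genes passed without both libraries of KO replicate 1, at 1.03 for Fbxl21, 0.42 for Pnpla2 and -0.43 for Cdkn1a.

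Per1 also belongs to the genes that glucocorticoids and cAMP induce, 2 lists that are read against the same shares of all genes, 15.3% higher and 16% lower in KO, 12.7% and 11.7% in Het, and 12.5% and 13.1% in WT islets. Of 9 glucocorticoid-induced genes tested, Per1 among them, 3 rose and 3 fell with cytokines in KO, 4 rose and 3 fell in Het, and 3 rose and 3 fell in WT islets. The 3 that fell were the same in each genotype: Fkbp5, a co-chaperone of the glucocorticoid receptor (-0.37 ± 0.05 in KO, -0.35 ± 0.05 in Het and -0.37 ± 0.05 in WT islets), Tsc22d3, also called GILZ (-0.70 ± 0.11, -0.73 ± 0.11 and -0.63 ± 0.11), and Klf9, a zinc finger factor (-0.42 ± 0.07, -0.32 ± 0.07 and -0.37 ± 0.07). Dusp1, a phosphatase of MAP kinases, rose (0.74 ± 0.09, 0.52 ± 0.09 and 0.56 ± 0.09). Ddit4 and Errfi1 of the same list also stood higher with cytokines. In KO islets Ddit4 had 150, 150 and 200 CPM with cytokines and 90.7, 90.8 and 105 CPM untreated. Errfi1 had 84.4, 84.4 and 109 CPM with cytokines and 43.0, 50.5 and 66.7 CPM untreated in KO islets. Of 12 immediate early genes of cAMP and calcium, 2 rose and 0 fell in KO, 2 rose and 0 fell in Het, and 1 rose and 2 fell in WT islets. Junb, an AP-1 subunit, rose in each (1.53 ± 0.16 in KO, 0.99 ± 0.16 in Het and 1.00 ± 0.16 in WT islets). The KO values without both libraries of KO replicate 1 all passed, at -0.33 for Fkbp5, -0.66 for Tsc22d3, -0.40 for Klf9, 0.75 for Dusp1 and 1.45 for Junb.

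Between KO and WT islets most calls over all genes were lower in KO. Untreated, 2.4% of all genes were called lower and 0.534% higher, and with cytokines 3.8% and 1.52%. The few genes called in these lists were likewise all lower in KO, a direction that does not set them apart. Untreated, they were Npas2, Lonrf3, a clock output gene of the ring finger type (-0.62 ± 0.14, adjusted p = 0.0282), Dusp1 (-0.44 ± 0.09, adjusted p = 0.0209) and Nr4a2, a nuclear receptor of the immediate early class (-0.71 ± 0.16, adjusted p = 0.0310). With cytokines they were Lonrf3 (-0.72 ± 0.15, adjusted p = 0.0125), Cdkn1a (-0.35 ± 0.07, adjusted p = 0.00901), Wdr5, a chromatin partner of the Period proteins (-0.20 ± 0.05, adjusted p = 0.0315), and Ep300, a histone acetyltransferase that works with the ARNTL and CLOCK pair (-0.18 ± 0.05, adjusted p = 0.0344). No gene of these lists was called between Het and WT islets, between KO and Het islets, or in an interaction. Without both libraries of KO replicate 1 none of them passed: the values untreated were -0.47 for Npas2, -0.53 for Lonrf3, -0.38 for Dusp1 and -0.59 for Nr4a2, and those with cytokines -0.72 for Lonrf3, -0.33 for Cdkn1a, -0.20 for Wdr5 and -0.16 for Ep300. Single libraries also ended calls: untreated KO replicate 1 (Dusp1 -0.38, Lonrf3 -0.53, Nr4a2 -0.59), untreated KO replicate 2 (-0.45, -0.57 and -0.73 for the same genes), untreated WT replicate 1 (-0.38, -0.61 and -0.55), and WT replicate 2 (Dusp1 -0.43, Lonrf3 -0.64) or 3 (Lonrf3 -0.62). With cytokines Cdkn1a was lost without KO replicate 2 (-0.31) or WT replicate 2 (-0.31), and Wdr5 and Ep300 without KO replicate 1 or 2 or any WT replicate, with values from -0.22 to -0.17 for Wdr5 and from -0.19 to -0.16 for Ep300. With no filter on low counts, Lonrf3 (adjusted p = 0.0951) and Nr4a2 (0.0855) untreated and Wdr5 (0.102) and Ep300 (0.101) with cytokines did not pass. In fits to the 2 groups alone, Lonrf3 (0.0913) and Nr4a2 (0.0688) untreated and Lonrf3 (0.0661), Wdr5 (0.0703) and Ep300 (0.0680) with cytokines did not pass.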

How the data were processed

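Islet RNA-seq of 6 groups of 3 libraries was analysed from the authors' deposited table of raw read counts per gene, whole numbers in 18 columns. FastQC 0.11.7, cutadapt 1.16, STAR 2.5.2a, featureCounts 1.6.2, DESeq2 1.30.0 and genome build GRCm38 are named, without roles, per the submitters' processing notes. The gene annotation and the strand setting of the counting are not given in the sources used here. A deposited table of filtered counts and a table of conditions were not used.

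In R 4.3.3, edgeR 4.0.16 fitted a quasi-likelihood model with robust estimation, as in an earlier analysis of these data, and 1 mean per group to all 18 libraries (filterByExpr with a count minimum of 10, TMM scaling, 12 residual degrees of freedom). Its 12 comparisons were adjusted by Benjamini and Hochberg over 17590 genes, with a threshold of 0.05, and the script was tested on simulated data. The log2 CPM values for correlations used a prior count of 2. DESeq2 1.42.0, limma 3.58.1 and the other alternatives are given with the sensitivity results. Python 3.11.15 with scipy 1.17.1 and matplotlib 3.10.9 computed correlations and figures. All gene identifiers matched GENCODE M21 for the genes described, and gene coordinates are from it.

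The 10 clock genes and the lists were chosen with earlier results of these data known. 1 gene of the core loop list is not reported here and was left out of that list. The named genes are the 10, up to 4 per list and comparison with the smallest adjusted p, the 3 nearest in likeness to the 2 clock genes of smallest adjusted p, and Slc30a8, Nos2 and Ins2 as checks. Of the genes picked from the lists the text prints only a part, and leaves out others such as Csnk1d, Prkaa1 and Klf15.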

Additional observations from a re-analysis of the deposited data

How the results depend on the processing

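The alternatives were RLE size factors, no filter on low counts, DESeq2, limma voom with sample quality weights, a replicate block, a block within genotype, only the groups compared and leaving out each library in turn. No share of all genes called is given here for these fits. Their counts of clock genes therefore do not show whether the clock genes stand apart from other genes. Added after seeing the data were edgeR without robust estimation, which gave the same counts, and the fit without both libraries of KO replicate 1 (the fit reported called 0 clock genes higher and 4 lower in KO islets, 1 higher and 0 lower in Het islets, 0 higher and 2 lower in WT islets). DESeq2 gave 1 higher in KO and 2 higher in Het islets. Voom gave 3 higher in KO and 1 higher in WT islets, 5 higher and 1 lower in KO against WT islets with cytokines, and 2 higher in untreated KO against Het islets. Only the groups compared gave 2 lower in KO and 1 higher in WT islets. Without KO replicate 1 there were 2 higher in KO, 3 higher in Het and 1 higher in WT islets. Leaving out 1 library gave 0 to 3 higher and 1 to 4 lower in KO islets, 1 to 2 lower in WT islets, and 0 to 2 higher in untreated KO against Het islets.

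Deviations of libraries that share a number within a genotype correlated from r = -0.219 to 0.392 over the 9 treatment pairs, with 6 over 0.1, against 3 of 18 pairs of different numbers. Not every pair was over 0.1, so the fit reported did not pair the libraries by number. The limit of 0.1 was a rule and not a test, so it does not show that the libraries are unpaired. Calls that differ between the fit reported and the block within genotype, such as those of Nr1d1, depend on this choice. The replicate block over the 3 numbers gave the same counts, 0 higher and 4 lower in KO islets, 1 higher in Het islets, 2 lower in WT islets, and changed no call of a clock gene, while Wdr5 in KO against WT islets with cytokines no longer passed (adjusted p = 0.053). It used the replicate numbers of the sample descriptions. The sample titles number the libraries 1, 2 and 4 in Het islets and 2, 3 and 4 in KO and WT islets. A block by title number was not run. The block within genotype, for which no share of all genes is given here, gave 2 higher and 6 lower in KO islets, 3 higher and 1 lower in Het islets, 1 higher and 4 lower in WT islets. Its added calls were Nr1d1 higher in KO (0.507), Het (0.556) and WT islets (0.45), Nr1d2 higher in KO (0.263) and Het islets (0.218), Dbp lower in KO (-0.355) and WT islets (-0.421), Per2 lower in KO islets (-0.284), Cry1 lower in Het (-0.243) and WT islets (-0.206), and, outside the 10, Hlf lower in Het (-0.711) and Thra lower in KO islets (-0.264). In pairs of the same number and genotype, Nr1d1, Nr1d2 and Per1 were higher with cytokines in 9 of 9, and Arntl, Clock, Cry1 and Dbp lower in 9 of 9. Per2 and Cry2 were lower in 8 of 9, and Per3 was higher in 5 of 9. No share of all genes is given here for such pairs. Of 9 cytokine libraries, 7 correlated best with the untreated library of their own number, a hint from the data and not the design.

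Signs turned for values that did not pass in the fit reported. Per3 in KO islets, -0.01 in the fit reported, was 0.00603 with RLE, 0.0033 with no filter, 0.00548 with DESeq2, 0.272 with voom, 0.00769 with only the groups compared and 0.0266 without KO replicate 1, and Per3 in Het islets was -0.00404 with voom. Nr1d1 in KO against WT islets with cytokines was 0.102 with voom. Without KO replicate 1, KO against WT islets gave 0.0565 for Arntl and -0.0406 for Nr1d2 untreated and 0.0104 for Cry1 with cytokines, and r of Arntl was 0.557 with Per1, 0.0924 with Per2 and 0.336 with Cry2. With 1 library left out, the log2 fold change with cytokines ran from -0.261 to 0.277 for Per3 and -0.654 to 0.0318 for Dbp in KO islets, and -0.0495 to 0.155 for Per3 in WT islets. For untreated KO against WT islets the ranges were -0.0934 to 0.0566 for Arntl, -0.0406 to 0.256 for Nr1d2, -0.0136 to 0.212 for Cry1 and -0.456 to 0.0197 for Nr1d1, and with cytokines -0.307 to 0.0187 for Nr1d1. The correlation of Arntl ran from -0.556 to 0.0408 with Per1 and -0.387 to 0.0937 with Cry2. The cause of these changes was not tested. With 3 libraries a group and 22990164 counts or more in each, changes of the size of those in Per2, Per3 and Dbp did not pass in the fit reported, and fold changes say nothing of clock phase.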
